A study of Mus musculus with 12 samples.

Results

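The complement system is described here through 35 mouse genes: its components, the receptors that read its fragments and the regulators that hold it in check. The genes were taken by symbol, and each of the 35 was found among the 52636 gene identifiers of the count table. They divide into 7 genes of the classical pathway, 5 of the lectin pathway, 4 of the alternative pathway, 5 of the terminal pathway, 6 receptors and 8 regulators. In total 28 of the 35 passed the filter on low counts and were tested, and 7 did not.

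Complement is a cascade of plasma proteins in which a trigger on an antibody, a sugar or a bare surface leads to cleavage of C3 by a convertase enzyme. The fragments coat the target and attract and activate myeloid cells, and the later components assemble into a pore in the membrane. The liver makes most of the circulating protein, while macrophages, fibroblasts and fat cells make parts of it locally. In mice, arthritis caused by K/BxN serum is known to need the alternative pathway, C5 and the C5a receptor C5ar1, and not C1q or C4.

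RNA came from paw joints in 12 libraries, each taken as 1 mouse, in 3 groups of 4. Anti-SIRPa mice received K/BxN serum, which carries antibodies against a joint-bound self antigen, and the agonistic antibody 6F2 against SIRPa, through which CD47 on other cells restrains myeloid cells. Control mice received the same serum and anti-gp120, a negative control antibody. Both groups were taken at day 7 after serum transfer. Naive mice received anti-gp120 and no serum. The labels name no strain, sex or age. Serum transfer supplies finished antibody, so it models the effector phase of arthritis and not the making of the antibodies.

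Total counts per library were 13791454 to 17597920 in anti-SIRPa mice, 6893969 to 13416033 in control mice and 14289363 to 16205593 in naive mice. Control 2 was the shallowest. A count of 3, taken as the detection floor, equals 0.17 to 0.394 CPM, the count scaled to the library total and its TMM factor, and this floor covers counting error only. The design text speaks of total paw tissue, and the markers show tissues besides joint. Summed fibroblast markers reached at least 10890.9 CPM and summed skeletal muscle markers at least 28827.9 CPM in each library, and chondrocyte markers ran from 423.5 to 945.7 CPM. Epidermal markers ran from 6.25 to 14150.6 CPM, with anti-SIRPa 2 and naive 4 nearly free of them. Hepatocyte markers summed to 0.165 to 2.89 CPM, and Serpina1a was at 0 in all 12 libraries. Control 1 lay near the naive libraries in many genes below. Controls 2 and 4 carried 518.2 and 222.0 CPM over 1762 smell and taste receptor genes, against 10.1 to 29.1 CPM in the other 10 libraries.

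Compared per exon length, the complement genes of the joint covered a wide range. The mean over 12 libraries was 304.4 TPM (counts per exon length, scaled to the same total in each library) for Cfd, the fat-cell protease that cleaves factor B, and 292.9 TPM for Serping1, the C1 inhibitor. The C1q chain genes C1qa, C1qb and C1qc averaged 282.9, 211.5 and 164.0 TPM. C3, the central component, averaged 202.3 TPM. The ranges of these 6 genes over the libraries overlapped, so that their order is a description of the means. At the low end stood the terminal genes, with 0.905 TPM for C7, 0.67 for C8g, 0.321 for C9, 0.22 for C6 and 0.104 for Hc, which encodes C5. The regulator Cd46 at 0.765 TPM and the lectin pathway gene Masp2 at 0.179 TPM lay among them.

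**Figure D1:**
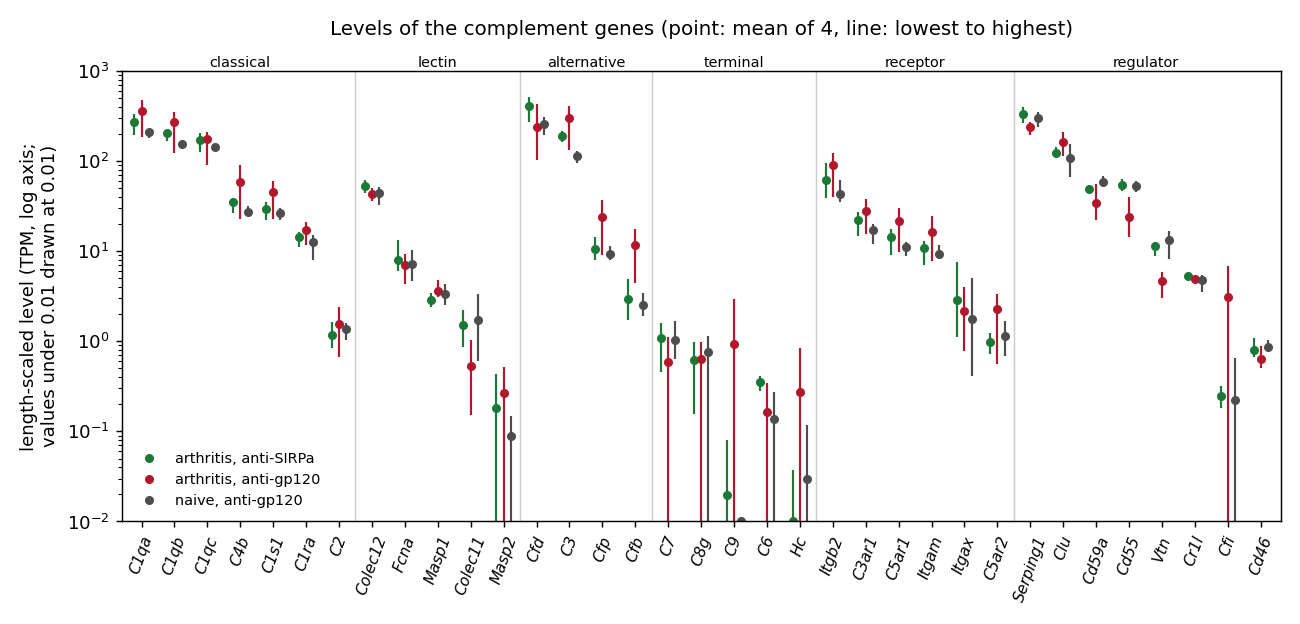
Length-scaled level of each of the 35 complement genes by role on a log axis in TPM, with 1 point per group for the mean of 4 mice and a line from the lowest to the highest mouse, anti-SIRPa left of control and naive. As means over the 12 libraries, Cfd, Serping1, C3 and the C1q genes lie above 160 TPM and each of the 5 terminal genes under 1 TPM, while single group means reach as low as 114.2 TPM for C3 in naive joints and as high as 1.09 TPM for C7 in anti-SIRPa joints.

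Arthritis with the control antibody was first set against naive joints. Higher in control arthritis were 5 of the 28 tested genes, the alternative pathway genes C3, Cfb and Cfp and the classical pathway genes C1qb and C4b. Lower were 2, the regulators Cd55 and Vtn. Of all 16674 tested genes 5.87% were called higher and 4.45% lower in edgeR. The 7 called genes are 25% of those tested, beside 10.3% of all tested genes called at an adjusted p under 0.05 in edgeR. The median log2 fold change was 0.34 over the 28 genes and 0.03 over all tested genes. In bulk tissue, fewer cells of a type and less RNA per cell cannot be told apart.

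The agonistic antibody was then set against the control antibody, both in arthritis. Here 3 of the 28 genes were called, which is 10.7%, beside 3.29% of all tested genes. Cfb was lower in anti-SIRPa joints, beside 1.7% of all tested genes, and Cd55 and Vtn were higher, beside 1.59%. The median log2 fold change was -0.32 over the 28 genes and -0.03 over all tested genes. This comparison shares the 4 control libraries with the one against naive joints.

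Between anti-SIRPa and naive joints 0 of the 28 genes and 0% of all tested genes were called by edgeR. At an unadjusted p under 0.05 stood 1 complement gene, C3, and 675 genes in all, or 4.05%. DESeq2 called 20 genes here, with 0 of the complement genes among them. The median log2 fold change of the 28 genes was 0.18.

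**Figure D2:**
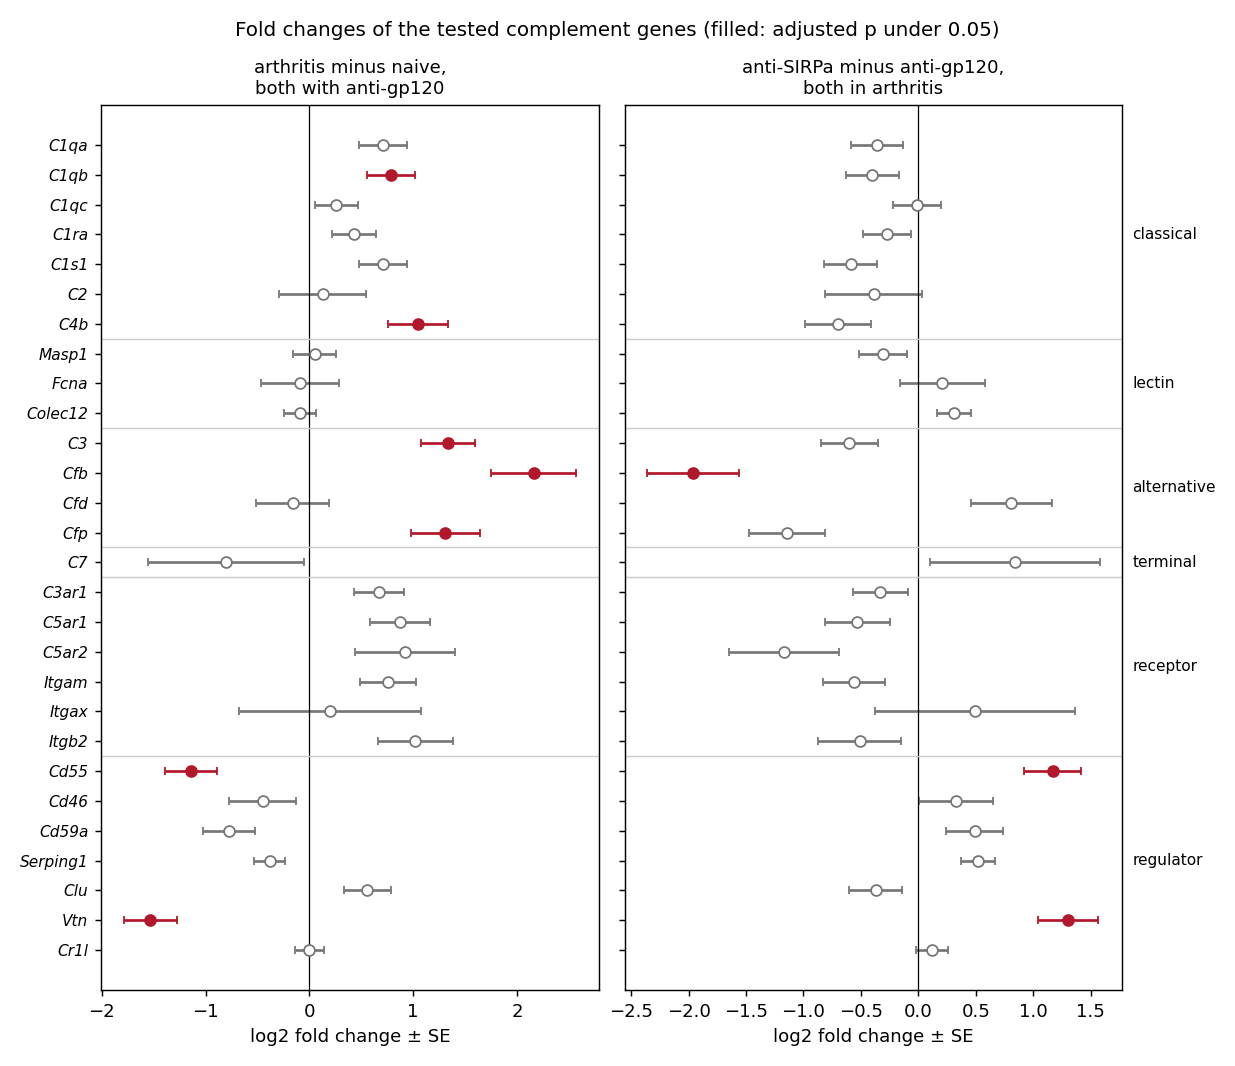
The log2 fold change with its SE for the 28 tested complement genes, ordered by role, for control arthritis minus naive (left) and anti-SIRPa minus control in arthritis (right), with filled points where the edgeR adjusted p is under 0.05. Filled points stand at 5 genes above 0 and 2 below on the left, and at Cd55 and Vtn above and Cfb below on the right.

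All 35 are protein-coding genes in GENCODE M21 on GRCm38, and values are per gene over all exons. C3 (ENSMUSG00000024164) lies at chr17:57203970-57228136 on the minus strand. On the same chromosome and strand are Cfb (ENSMUSG00000090231) at chr17:34856374-34862518 and C4b (ENSMUSG00000073418) at chr17:34728380-34743882, in the major histocompatibility region. Cfp (ENSMUSG00000001128) is at chrX:20925454-20931555 (minus), C1qb (ENSMUSG00000036905) at chr4:136880129-136886187 (minus), Cd55 (ENSMUSG00000026399) at chr1:130439027-130462744 (minus) and Vtn (ENSMUSG00000017344) at chr11:78499091-78502324 (plus).

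The alternative pathway amplifies C3 cleavage, and 3 of its 4 genes were called higher in control arthritis, beside 5.87% of all tested genes. C3 stood at 321.7, 228.5, 306.2 and 279.7 CPM in anti-SIRPa mice 1 to 4, at 196.6, 442.5, 564.1 and 516.6 CPM in control mice and at 184.8, 185.5, 143.5 and 165.6 CPM in naive mice. The controls all lay above the naive mice, control 1 by the least, and the anti-SIRPa mice also lay wholly above the naive mice. C3 averaged 430.0 ± 163.4 CPM in control arthritis and 169.8 ± 19.9 CPM in naive joints (SD, n = 4 each), a log2 difference of 1.34 ± 0.26 (SE), or 2.53-fold, with an edgeR adjusted p of 0.0107. In anti-SIRPa joints the mean was 284.0 ± 40.8 CPM, and the difference from control arthritis was -0.60 ± 0.25 with an edgeR adjusted p of 0.167. Against naive joints anti-SIRPa C3 differed by 0.74 ± 0.25 on the log2 scale, with an unadjusted p of 0.0112 and an edgeR adjusted p of 1. Among all tested genes 4.89% had groups that did not overlap in that comparison, 3.04% higher and 1.85% lower. So did 3 of the 28 complement genes, C3 and C1qb, higher in anti-SIRPa joints, and Cd59a, lower.

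Factor B, the gene product of Cfb, supplies the protease of the alternative C3 convertase. Cfb stood at 1.41, 2.51, 1.66 and 3.96 CPM in anti-SIRPa mice, at 3.64, 11.2, 13.4 and 9.24 CPM in control mice and at 2.68, 1.55, 1.97 and 2.15 CPM in naive mice. Control mice were all above naive mice, and anti-SIRPa 4 lay above control 1, so that those groups touched. In control arthritis the mean was 9.35 ± 4.17 CPM and in naive joints 2.08 ± 0.469 CPM (SD, n = 4 each). The log2 difference was 2.16 ± 0.41, or 4.46-fold, with an edgeR adjusted p of 0.0103. Anti-SIRPa joints averaged 2.39 ± 1.15 CPM, lower than control arthritis by a log2 difference of -1.96 ± 0.40 with an edgeR adjusted p of 0.0295. Against naive joints that mean differed by 0.20 ± 0.40 on the log2 scale. Of the exon bases of Cfb, 79.5% are shared with the overlapping gene model Gm20547, which had 0 counts in all 12 libraries.

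Properdin, encoded by Cfp, stabilises the same convertase and comes from myeloid cells. Cfp was at 5.46, 3.86, 4.48 and 7.02 CPM in anti-SIRPa mice, at 4.63, 10.8, 17.2 and 13.4 CPM in control mice and at 3.90, 4.64, 5.69 and 4.37 CPM in naive mice. Controls 2 to 4 were the 3 highest libraries, and control 1 lay inside the naive range. The rise in control arthritis was 1.31 ± 0.33 on the log2 scale (11.5 ± 5.30 CPM against 4.65 ± 0.761 CPM, SD, n = 4 each, edgeR adjusted p = 0.027). Between anti-SIRPa and control joints the log2 difference was -1.14 ± 0.33 with an edgeR adjusted p of 0.0647. Cfp was called lower there by DESeq2, by edgeR without a filter and by edgeR without control 1. These settings called 11.3%, 1.73% and 23% of all tested genes.

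Cfd encodes factor D, or adipsin, which cleaves factor B and is made by fat cells. It had 72.5, 92.5, 140.3 and 128.6 CPM in anti-SIRPa mice, 57.0, 26.1, 106.2 and 58.1 CPM in control mice and 79.4, 61.8, 81.1 and 55.3 CPM in naive mice. The groups overlapped in each comparison. Cfd differed by -0.16 ± 0.35 on the log2 scale between control arthritis and naive joints (edgeR adjusted p = 0.797) and by 0.81 ± 0.35 between anti-SIRPa and control joints (edgeR adjusted p = 0.188). The 7 adipocyte markers summed to 141.0 to 236.5 CPM in anti-SIRPa mice, 38.7 to 140.9 CPM in control mice and 82.7 to 120.0 CPM in naive mice, with 2 of 7 called higher in anti-SIRPa than in control joints and none at 0. Their part in the Cfd values was not tested.

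**Figure D3:**
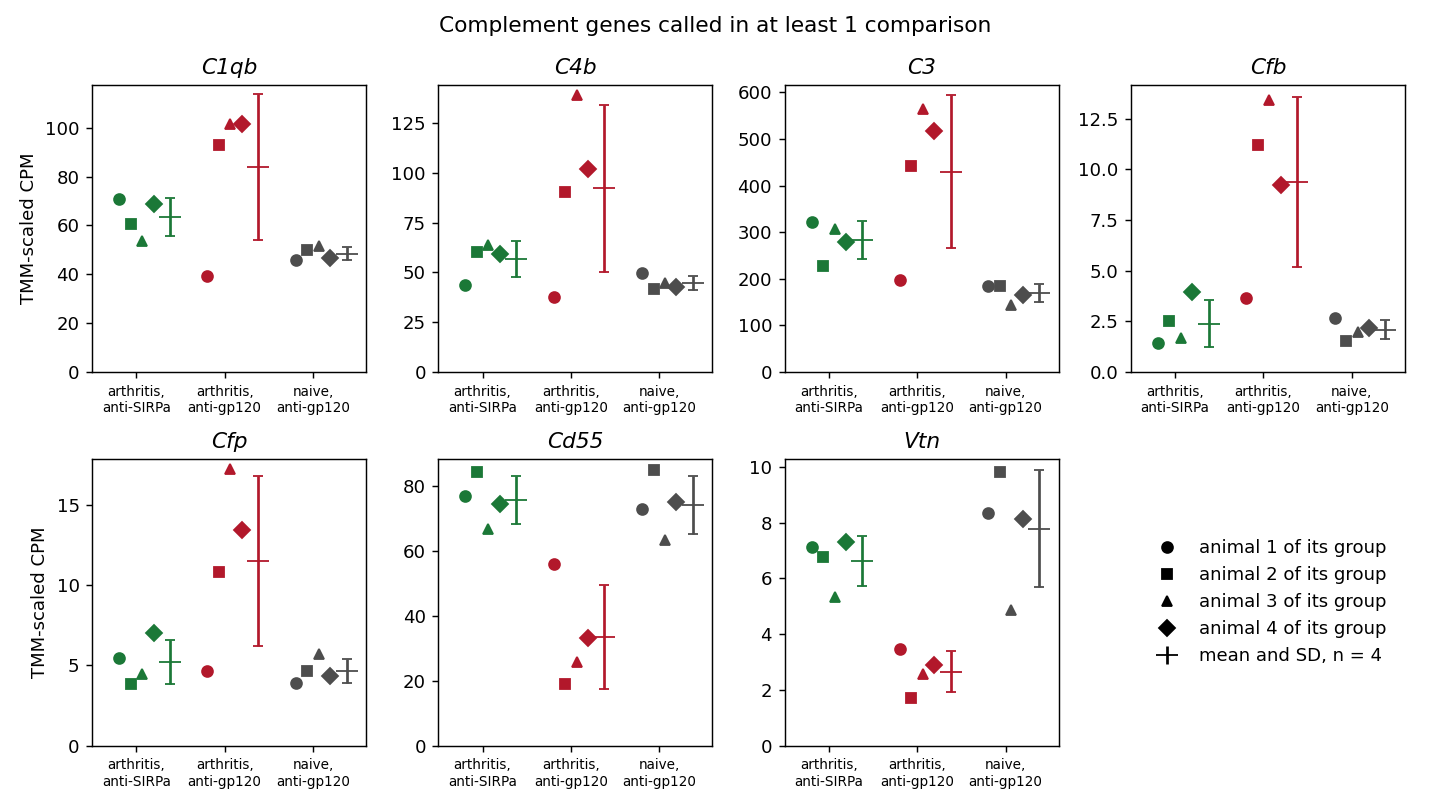
TMM-scaled CPM of the 7 complement genes called in at least 1 comparison, with 1 symbol per mouse and the mean with its SD for anti-SIRPa, control and naive joints (n = 4 each). Control 1 lies closest to the naive mice for C3 and within or below their range for Cfp, C1qb and C4b, while for Vtn the 4 controls sit at 1.71 to 3.47 CPM, below the other 8 mice.

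Among the regulators, Cd55 and Vtn fell in control arthritis and were higher in anti-SIRPa joints. Cd55 encodes decay-accelerating factor, a membrane protein that takes C3 convertases apart. It was at 77.0, 84.3, 66.6 and 74.5 CPM in anti-SIRPa mice, at 56.0, 19.0, 25.8 and 33.3 CPM in control mice and at 72.8, 85.0, 63.4 and 75.0 CPM in naive mice. The 4 controls lay below all other libraries, with control 1 the nearest. Control joints averaged 33.5 ± 16.1 CPM and naive joints 74.0 ± 8.85 CPM (SD, n = 4 each), a log2 difference of -1.14 ± 0.25 with an edgeR adjusted p of 0.0189. In anti-SIRPa joints the mean was 75.6 ± 7.32 CPM, which is 1.17 ± 0.25 above control joints on the log2 scale (edgeR adjusted p = 0.0347) and 0.03 ± 0.25 from naive joints.

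Vitronectin, encoded by Vtn, binds the nascent terminal complex and keeps it out of membranes, and it is also an adhesion protein. Vtn had 7.11, 6.76, 5.34 and 7.30 CPM in anti-SIRPa mice, 3.47, 1.71, 2.57 and 2.89 CPM in control mice and 8.34, 9.83, 4.85 and 8.12 CPM in naive mice. Again the 4 controls were the 4 lowest libraries. The mean of 2.66 ± 0.737 CPM in control joints, against 7.79 ± 2.1 CPM in naive joints (SD, n = 4 each), gave a log2 difference of -1.53 ± 0.26 with an edgeR adjusted p of 0.0079. Anti-SIRPa joints averaged 6.63 ± 0.887 CPM, higher than control joints by 1.30 ± 0.26 on the log2 scale with an edgeR adjusted p of 0.0289. Against naive joints the difference was -0.23 ± 0.25. Groups that did not overlap were found for 2 higher and 2 lower complement genes in control arthritis, beside 12.5% of all tested genes (6.02% higher and 6.47% lower). In anti-SIRPa against control joints they were found for Cd55 and Vtn, both higher, beside 10% of all tested genes, or 5.18% in that direction. Skeletal muscle markers summed to 50654.9 to 78452.1 CPM in anti-SIRPa mice, 28827.9 to 77854.5 CPM in control mice and 69129.6 to 97755.5 CPM in naive mice, with 2 of 8 called lower in control arthritis, and their part in the Cd55 and Vtn values was not tested.

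C3 and Vtn moved in opposite directions in control arthritis, and of the 7 called genes they have both a promoter entry in the RefSeq table and a match to a motif beyond PU.1. Each sequence runs from 250 bases before the start site to 50 after it, read 5' to 3' on the strand of the gene in build GRCm38.p6. The C3 window is chr17:57228087-57228386 on the minus strand and the Vtn window is chr11:78498870-78499169 on the plus strand. Capitals mark the motif matches.
C3: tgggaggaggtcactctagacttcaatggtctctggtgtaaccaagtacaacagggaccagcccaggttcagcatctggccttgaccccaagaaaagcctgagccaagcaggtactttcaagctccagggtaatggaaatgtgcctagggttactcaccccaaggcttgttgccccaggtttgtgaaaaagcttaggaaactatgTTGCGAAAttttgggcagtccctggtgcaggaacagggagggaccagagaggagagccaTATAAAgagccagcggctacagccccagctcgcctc
Vtn: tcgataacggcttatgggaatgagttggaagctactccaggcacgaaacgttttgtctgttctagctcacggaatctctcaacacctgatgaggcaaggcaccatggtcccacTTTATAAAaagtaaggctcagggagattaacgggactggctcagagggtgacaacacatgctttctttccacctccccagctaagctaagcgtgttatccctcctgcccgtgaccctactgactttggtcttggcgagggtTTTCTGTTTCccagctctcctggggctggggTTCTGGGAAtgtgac
In the C3 window the capitals are a C/EBP match (TTGCNNAA) at -45 to -38 and a TATA box match (TATAAA) at 15 to 20, counted from the annotated start site. In the Vtn window they are TATAAA on both strands at -137 to -130, where the matches overlap, an interferon response element match (GAAA, then NN, then GAAA, minus strand) at 5 to 14 and a gamma-activated site match (TTCNNNGAA) at 36 to 44. Of 32544 promoters searched on both strands, 10.8% held TTGCNNAA, 13.6% TATAAA, 3.45% the interferon response element and 8.33% TTCNNNGAA. Also searched were an NF-kB motif, found in 8.49% of promoters, the AP-1 motif TGANTCA in 7.79% and the PU.1 motif GAGGAA in 28.1%. A window had an entry for 25 of the 35 genes. C1qb held GAGGAA once and Cfp had 2 matches to it, and the Cd55 window held none of the 7 motifs. Matches of letters are a description of the sequence, not sites of binding.

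Of the other 6 regulators 5 were tested, and edgeR with the filter and all 12 libraries called none of them in any comparison. DESeq2 called Serping1 higher in anti-SIRPa against control joints, beside 11.3% of all tested genes called. So did edgeR without a filter, beside 1.73%. In control arthritis against naive joints DESeq2 called Serping1 and Cd59a lower, beside 17.4%, and limma-voom called Cd59a lower, beside 6.99%. Without control 1, edgeR called Serping1 and Cd59a higher in anti-SIRPa against control joints, beside 23%. The same fit called Clu higher and Cd59a lower in control arthritis against naive joints, beside 27.2%. Serping1, whose product inhibits the C1 and lectin proteases, had 205.3, 257.9, 183.4 and 247.1 CPM in anti-SIRPa mice, 131.3, 141.9, 163.2 and 185.2 CPM in control mice and 226.4, 218.0, 194.1 and 172.6 CPM in naive mice. Anti-SIRPa 3 lay just under control 4, so that those groups touched. The log2 difference was -0.38 ± 0.15 between control arthritis and naive joints (edgeR adjusted p = 0.11) and 0.52 ± 0.15 between anti-SIRPa and control joints (edgeR adjusted p = 0.0645). Clu encodes clusterin, which, like vitronectin, holds the terminal complex in solution. It had 110.8, 124.0, 114.8 and 139.6 CPM in anti-SIRPa mice, 114.4, 117.4, 185.2 and 214.0 CPM in control mice and 146.8, 104.3, 104.9 and 70.8 CPM in naive mice. Controls 3 and 4 were the highest libraries, and the groups overlapped. The Clu difference was 0.56 ± 0.23 in control arthritis against naive joints (edgeR adjusted p = 0.129) and -0.37 ± 0.23 in anti-SIRPa against control joints (edgeR adjusted p = 0.342). Cd59a, which blocks the last step of pore assembly, averaged 25.4 ± 0.797 CPM in anti-SIRPa, 17.9 ± 8.56 CPM in control and 30.6 ± 3.53 CPM in naive joints, with an edgeR adjusted p of 0.065 for control arthritis against naive. Cr1l, known as Crry, is a mouse membrane regulator of C3 convertases and ran from 11.3 to 16.9 CPM over the 12 libraries. Cd46 ran from 1.05 to 2.45 CPM, and 14.2% of its exon bases overlap a transcript on the opposite strand.

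Factor I, encoded by Cfi, cuts C3b and C4b with the help of cofactors. Cfi did not pass the filter with all 12 libraries, and its values are given because they were seen to differ between mice. It had 3, 3, 2 and 2 counts in anti-SIRPa mice, 0, 32, 23 and 24 counts in control mice and 0, 0, 6 and 2 counts in naive mice. Controls 2 to 4 were the 3 highest libraries at 4.20, 1.74 and 1.73 CPM, and control 1 had no count. In the edgeR fit without control 1 Cfi passed the filter, but only through controls 2 to 4, where it is high. That fit also left out the control without a count. It called Cfi higher in control arthritis against naive joints, beside 27.2% of all tested genes called. In anti-SIRPa against control joints it called Cfi lower, beside 23%. Both calls follow from that choice of libraries and give no support for a difference.

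The classical pathway starts when C1q binds antibody and its proteases cut C4 and C2. Each of the 7 genes had a fitted value above 0 in control arthritis against naive joints, a share that is not given for all tested genes. Their median log2 fold change was 0.71, beside 0.03 over all tested genes. Of the 7, 2 were called, both higher, beside 5.87% of all tested genes called higher. C4b was at 43.5, 60.5, 63.7 and 59.2 CPM in anti-SIRPa mice, at 37.6, 90.4, 139.1 and 102.0 CPM in control mice and at 49.6, 41.9, 44.6 and 42.8 CPM in naive mice. Controls 2 to 4 were above all other libraries and control 1 was the lowest of the 12. Its rise in control arthritis was 1.05 ± 0.29 on the log2 scale (92.3 ± 42.0 CPM against 44.7 ± 3.46 CPM, SD, n = 4 each, edgeR adjusted p = 0.0431). The anti-SIRPa mean of 56.7 ± 9.02 CPM differed from control joints by -0.70 ± 0.29 with an edgeR adjusted p of 0.164. C4a, a near copy of C4b, reached at most 1.16 CPM.

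The 3 C1q chains are products of adjacent genes on chromosome 4 and come from macrophages. C1qb had 70.8, 60.6, 53.6 and 68.6 CPM in anti-SIRPa mice, 39.4, 93.1, 101.7 and 101.4 CPM in control mice and 45.7, 50.1, 51.5 and 46.8 CPM in naive mice. C1qa had 100.9, 81.7, 59.6 and 84.4 CPM in anti-SIRPa mice, 55.7, 138.2, 103.1 and 121.6 CPM in control mice and 64.8, 64.5, 69.2 and 58.0 CPM in naive mice. Control 1 was the lowest of all 12 libraries for both genes, and controls 2 to 4 were the highest. C1qb rose in control arthritis by 0.79 ± 0.23 on the log2 scale, to 83.9 ± 29.9 CPM against 48.5 ± 2.75 CPM in naive joints (SD, n = 4 each), with an edgeR adjusted p of 0.0473. C1qa, at 0.71 ± 0.23 with an edgeR adjusted p of 0.0665, and C1qc, at 0.26 ± 0.21 with an edgeR adjusted p of 0.441, were not called with all 12 libraries. DESeq2 called C1qa higher as well, beside 17.4% of all tested genes. Leaving out control 1, edgeR called all 3 chains higher, beside 27.2%. Between anti-SIRPa and control joints the log2 differences were -0.36 ± 0.23 for C1qa, -0.40 ± 0.23 for C1qb and -0.01 ± 0.21 for C1qc. With all 12 libraries none of the chains was called. Without control 1 edgeR called C1qa and C1qb lower, beside 23% of all tested genes.

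The ratio of C1qb to C1qc, both scaled by exon length, was compared after the values had been seen. It was 1.08, 1.12, 1.30 and 1.29 in anti-SIRPa mice, 1.37, 1.47, 1.67 and 1.62 in control mice and 1.00, 1.07, 1.27 and 1.01 in naive mice. The 4 controls, control 1 included, were the highest. In control arthritis the ratio averaged 1.53 ± 0.14 and in naive joints 1.09 ± 0.123 (SD, n = 4 each), with a two-sided exact permutation p of 0.0286, the smallest that 4 against 4 can give. Anti-SIRPa joints averaged 1.2 ± 0.113, and the exact permutation p against control joints was also 0.0286. Over the 9 ratio comparisons the Benjamini-Hochberg value of both was 0.0857 by the exact permutation test, so neither passed the correction. The ratio of C1qa to C1qc was 1.59 ± 0.0617 in anti-SIRPa and 2.03 ± 0.207 in control joints, and that comparison had the same exact permutation p and corrected value. In naive joints this ratio was 1.51 ± 0.2, and its control and naive groups overlapped. That comparison had an exact permutation p of 0.0571 and a corrected value of 0.129.

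C1ra and C1s1 encode the proteases of the C1 complex. C1s1 averaged 26.4 ± 4.96 CPM in anti-SIRPa, 39.8 ± 13.3 CPM in control and 24.3 ± 2.46 CPM in naive joints (SD, n = 4 each), with an edgeR adjusted p of 0.0626 in control arthritis against naive and 0.137 in anti-SIRPa against control. C1ra averaged 12.1 ± 1.95, 14.5 ± 3.57 and 10.8 ± 2.35 CPM in anti-SIRPa, control and naive joints. C2, the protease of the classical convertase, lay at 0.744 to 2.49 CPM and shares 42.8% of its exon bases with Gm20547.

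The 10 macrophage markers, none at 0, summed to 468.3 to 571.3 CPM in anti-SIRPa mice, to 367.7, 719.9, 744.1 and 710.6 CPM in control mice and to 382.0 to 422.3 CPM in naive mice. In control arthritis 7 of the 10 were called higher. Between anti-SIRPa and control joints 0 were called. The C1q chains summed to 39.8% to 50.4% of the macrophage marker sum in anti-SIRPa mice, 39.8% to 47.7% in control mice and 46.8% to 48.9% in naive mice. Cfp was 0.77% to 1.29% of that sum in anti-SIRPa mice, 1.26% to 2.31% in control mice and 0.954% to 1.40% in naive mice. Fibroblast markers summed to 13245.7 to 17476.4 CPM in anti-SIRPa mice, 11166.0 to 36269.0 CPM in control mice and 10890.9 to 17482.7 CPM in naive mice, with 4 of 9 called higher in control arthritis. Col1a1, the largest of them in control mice, averaged 11693.1 CPM there and 2741.2 CPM in naive mice. Prg4 (6385.6 against 8175.2 CPM) and Dcn (673.7 against 818.9 CPM) had lower means in control than in naive mice. The other fibroblast markers had higher means in control mice. The part of these cells in the complement values was not tested.

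**Figure D4:**
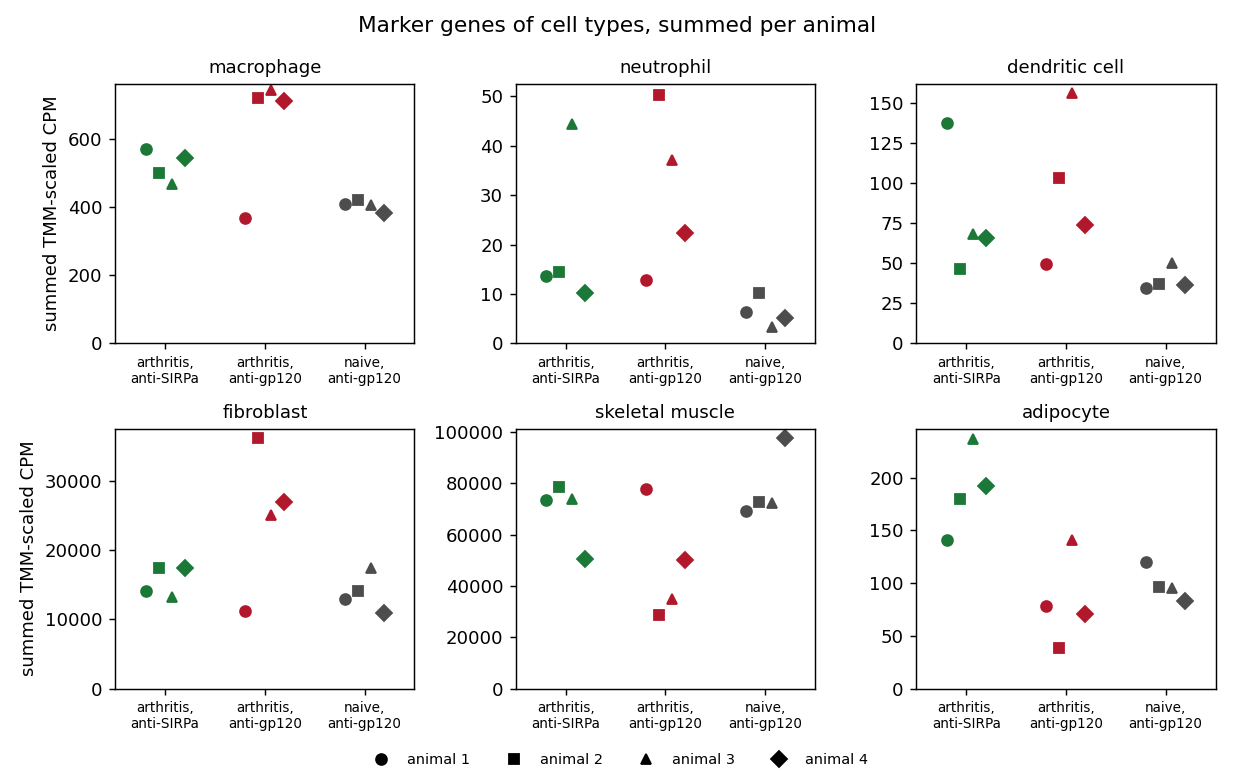
Marker genes of cell types summed per mouse in TMM-scaled CPM, with 1 symbol per mouse for anti-SIRPa, control and naive joints. Macrophage markers stand at 710.6 to 744.1 CPM in controls 2 to 4 and at 367.7 CPM in control 1, below the naive mice.

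Complement receptors carry the signal into myeloid cells. The fitted value of all 6 was above 0 in control arthritis against naive joints, a share that is not given for all tested genes. Their median log2 fold change was 0.82, beside 0.03 over all tested genes. At an unadjusted p under 0.05 stood 4 of them, beside 28.2% of all tested genes, and 0 were called by edgeR with all 12 libraries. DESeq2 called C5ar1 and Itgb2 higher, beside 17.4% of all tested genes called. Without control 1 edgeR called C3ar1, C5ar1, C5ar2, Itgam and Itgb2 higher, beside 27.2%. The same fit called C5ar1, C5ar2 and Itgam lower in anti-SIRPa against control joints, beside 23%. Itgb2, the beta chain that pairs with Itgam as complement receptor 3 and with Itgax as complement receptor 4, was at 84.9, 49.3, 35.6 and 44.8 CPM in anti-SIRPa mice, at 35.4, 101.1, 101.7 and 68.4 CPM in control mice and at 30.3, 33.1, 55.2 and 33.0 CPM in naive mice. Anti-SIRPa 1 and naive 3 stood above their groups, and these were also the libraries with the most Itgax, at 10.6 and 6.96 CPM against 0.548 to 5.25 CPM in the other 10. In the same libraries the 9 dendritic cell markers summed to 137.6 and 50.2 CPM, each the highest of its group. Controls 2 and 3 had 103.6 and 156.3 CPM of these markers, with 5.25 and 2.72 CPM of Itgax. The part of the dendritic cell markers was not tested. The log2 difference of Itgb2 was 1.02 ± 0.36 in control arthritis against naive (edgeR adjusted p = 0.091) and -0.51 ± 0.36 in anti-SIRPa against control joints (edgeR adjusted p = 0.399).

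C3ar1 encodes the receptor for C3a. It had 33.6, 26.4, 18.8 and 28.8 CPM in anti-SIRPa mice, 19.5, 32.6, 44.0 and 39.5 CPM in control mice and 22.0, 22.2, 25.1 and 15.9 CPM in naive mice. Controls 3 and 4 were the highest libraries, and the groups overlapped. The difference was 0.67 ± 0.24 on the log2 scale in control arthritis against naive joints (edgeR adjusted p = 0.0863) and -0.33 ± 0.24 in anti-SIRPa against control joints (edgeR adjusted p = 0.41). C5ar1, the C5a receptor, averaged 10.6 ± 2.90 CPM in anti-SIRPa, 15.4 ± 5.84 CPM in control and 8.44 ± 1.40 CPM in naive joints (SD, n = 4 each), with an edgeR adjusted p of 0.0685 in control arthritis against naive and 0.264 in anti-SIRPa against control. C5ar2, a second C5a receptor that does not couple to G proteins, had the largest receptor difference between anti-SIRPa and control joints, -1.17 ± 0.48 on the log2 scale. It was not called with all 12 libraries (edgeR adjusted p = 0.16). Itgam averaged 15.7 ± 3.58 CPM in anti-SIRPa, 23.2 ± 8.93 CPM in control and 13.6 ± 2.45 CPM in naive joints (SD, n = 4 each), with an edgeR adjusted p of 0.0858 in control arthritis against naive and 0.217 in anti-SIRPa against control, and it shares 68.7% of its exon bases with Gm49368, which reached at most 0.69 CPM. As a share of the macrophage marker sum C3ar1 was 4.02% to 5.88% in anti-SIRPa mice, 4.52% to 5.91% in control mice and 4.15% to 6.19% in naive mice. The 10 neutrophil markers summed to 10.1 to 44.3 CPM in anti-SIRPa mice, 12.8 to 50.2 CPM in control mice and 3.23 to 10.2 CPM in naive mice. Ly6g had 0, 5 and 2 counts in anti-SIRPa, control and naive mice, and Trem1 had 9, 88 and 0. S100a8, S100a9 and Mmp8 had higher means in anti-SIRPa than in control mice, and the other markers of the list had lower means. The part of these markers was not tested.

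**Figure D5:**
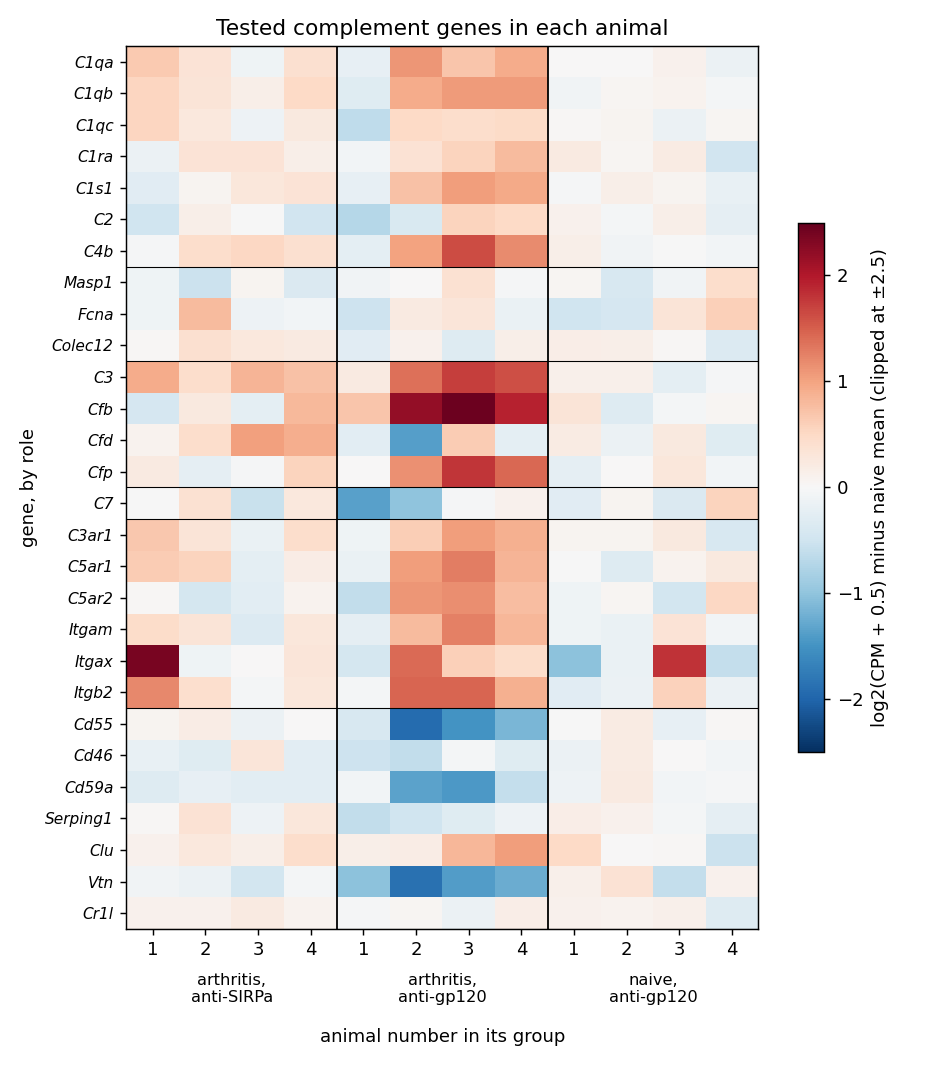
Each of the 28 tested complement genes by role in each mouse, as log2(CPM + 0.5) minus the mean of the naive mice, with colours clipped at 2.5 either way and columns in the order anti-SIRPa, control and naive. Controls 2 to 4 stand above control 1 in the rows of C1qb, C4b, Cfp and Itgb2, while Cd55 and Vtn are low in all 4 controls.

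The lectin pathway starts on sugars through ficolins and collectins. Colec12, a scavenger collectin of endothelium and stroma, had 112.8, 147.7, 132.8 and 130.6 CPM in anti-SIRPa mice, 91.6, 120.7, 88.4 and 123.0 CPM in control mice and 124.1, 123.6, 113.8 and 87.8 CPM in naive mice. Fcna, the macrophage ficolin A, had 2.47, 5.09, 2.45 and 2.55 CPM in anti-SIRPa mice, 1.74, 3.28, 3.47 and 2.38 CPM in control mice and 1.77, 1.90, 3.52 and 4.37 CPM in naive mice. The groups of both genes overlapped in each comparison. The log2 difference in control arthritis against naive joints was -0.09 ± 0.15 for Colec12 and -0.09 ± 0.38 for Fcna, and in anti-SIRPa against control joints it was 0.31 ± 0.15 and 0.21 ± 0.37. The protease gene Masp1 lay at 6.44 to 13.0 CPM and was not called. Masp2, at no more than 7 counts per library, and Colec11, at 1 to 22 counts, did not pass the filter. Of the exon bases of Masp2, 54.9% lie opposite Tardbp.

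The terminal pathway builds the pore from C5 to C9, and its RNA was close to the detection floor. C7 was the 1 gene tested, at 0.764, 1.16, 0.361 and 1.02 CPM in anti-SIRPa mice, 0, 0.131, 0.755 and 0.866 CPM in control mice and 0.548, 0.843, 0.492 and 1.38 CPM in naive mice. The groups overlapped, and its log2 differences were -0.80 ± 0.75 in control arthritis against naive joints (edgeR adjusted p = 0.515) and 0.84 ± 0.74 in anti-SIRPa against control joints (edgeR adjusted p = 0.52). C8g had 4, 1, 6 and 6 counts in anti-SIRPa mice, 3, 3, 0 and 6 in control mice and 5, 7, 7 and 0 in naive mice. Hc, the gene of C5, had 1 count in all 4 anti-SIRPa libraries together, 17 in the controls and 3 in the naive libraries, and 11 of the 17 were in control 2. C9 had 1, 24 and 0 counts in the anti-SIRPa, control and naive libraries. Of the 24, 16 were in control 2 and 7 in control 4, the libraries rich in smell and taste receptor counts. C6 had at most 7 counts in a library.

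Beyond these genes, 31 other complement genes were listed, of which 9 passed the filter. In control arthritis 2 were called higher and 1 lower, beside 10.3% of all tested genes called in either direction, and in anti-SIRPa against control joints 1 was called lower, beside 3.29%. Ptx3, a pentraxin that binds C1q, had 6.64, 8.11, 7.07 and 5.77 CPM in anti-SIRPa mice, 7.28, 47.5, 69.6 and 28.0 CPM in control mice and 4.93, 7.66, 6.75 and 10.1 CPM in naive mice. Controls 2 to 4 were far above the other 9 libraries and control 1 among them. Its log2 difference was 2.37 ± 0.53 in control arthritis against naive (edgeR adjusted p = 0.0229) and -2.46 ± 0.53 in anti-SIRPa against control joints (edgeR adjusted p = 0.0382). C1rl, a C1r-like protease, rose by 1.18 ± 0.34 in control arthritis (edgeR adjusted p = 0.0441) and Colec10, a collectin, fell by 1.69 ± 0.45 (edgeR adjusted p = 0.032). These 3 calls in control arthritis rest on few libraries too: each was lost with limma-voom, without any 1 naive library and without control 2 or 3, and those of C1rl and Colec10 also without control 4. The C1rl call was lost without anti-SIRPa 1 or 4 as well. The Ptx3 call in anti-SIRPa against control joints was lost with limma-voom, without any 1 anti-SIRPa library, without control 2, 3 or 4 and without naive 1, 2 or 3. Over the alternatives the adjusted p ran from 0.00695 to 0.302 for C1rl and from 0.00569 to 0.205 for Colec10 (edgeR, DESeq2 or limma-voom).

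The calls rest on few libraries. In control arthritis against naive joints 0 complement genes were called by edgeR without controls 2 and 4, where 7 had an unadjusted p under 0.05 and 1 gene of all tested genes was called, and Vtn alone without anti-SIRPa 2 and naive 4, the libraries nearly free of epidermal genes, while 15 were higher and 3 lower without control 1, where 27.2% of all tested genes (4694) were called. C3 and Cfb remained higher, and Vtn lower, when any 1 library was left out, whereas Cd55 was lost without naive 2, naive 4, control 3 or control 4. Cfp was lost without naive 1, 2 or 4 or control 2, 3 or 4, and C1qb and C4b without any 1 library other than control 1. In anti-SIRPa against control joints the 3 calls were lost without control 2, 3 or 4 or anti-SIRPa 1 or 2, without anti-SIRPa 3 for Cfb and Cd55, without naive 1, 2 or 3 for Cd55, and in a fit of the 2 groups alone, where 0 genes of all tested genes were called by edgeR and 3284 had an unadjusted p under 0.05. Without control 1 there were 4 higher and 11 lower complement genes among 3976 genes called in all, 23% of those tested. Cfi, let into that fit through controls 2 to 4, is among the 15 genes higher in control arthritis and among these 11 lower.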

How the data were processed

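The authors deposited whole-number counts of reads per gene for each of the 12 libraries, with no normalization, and the genome build GRCm38 per the submitters' processing notes. Libraries were made from total RNA with a stranded kit, per the labels' protocols. Neither the aligner nor the counter is given in the sources used here. Strand setting and multi-mapping treatment are likewise not given, so that genes sharing exon bases or having near copies are uncertain.

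Gene symbols and exon lengths came from GENCODE M21 on the same build. After filterByExpr by group 16674 genes were kept. Their counts were scaled by TMM and fitted with edgeR 4.0.16 in R 4.3.3, with 1 coefficient per group over all 12 libraries. The quasi-likelihood F-test was used, adjusted by the Benjamini-Hochberg method over all tested genes, and a gene is called at an adjusted p under 0.05. CPM values are TMM-scaled, and TPM values are counts per exon length scaled to the same total in each library. The fit was tested on simulated data. Alternatives used DESeq2 1.42.0, limma 3.58.1, other filters and scalings, and fits without single libraries.

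The members and lists were chosen with earlier results of these data known. Values in each library are printed for genes called in at least 1 comparison and for the 2 genes of each role with the highest TPM. No 2 libraries of a group agreed within sampling noise, with a lowest chi-square per gene of 8.95. Promoter sequences are from RefSeq, build GRCm38.p6. Each library was taken to be 1 animal, and the sample titles name only a joint sample, its treatment and a number.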

Additional observations from a re-analysis of the deposited data

Results flagged for a closer look

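In groups of 4 the highest or lowest library was compared with the nearest of the others. In 11 of 99 groups of complement genes that gap, divided by the whole range of the group, exceeded the critical value of Dixon's test. The nominal rate is about 1 in 20 for independent groups, while these groups share the same 12 libraries. The share over all tested genes is not given, so the count is not a result about complement genes. Control 1 stood below its group with 39.4 CPM for C1qb and 51.1 CPM for C1qc. Control 2 stood above its group with 1.44 CPM for Hc, which is 11 counts. Anti-SIRPa 1 was high for Itgax, at 10.6 CPM, and naive 3 was high for Itgax at 6.96 CPM, for Itgb2 at 55.2 CPM and for Itgam at 17.3 CPM. Anti-SIRPa 2 was high for the ficolin gene Fcna, at 5.09 CPM. Anti-SIRPa 3 was high for Cd46 at 2.45 CPM and for Cr1l at 16.9 CPM, and naive 4 was low for Cr1l at 11.3 CPM.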

How the results depend on the processing

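The counts of complement genes called moved with the setting, and the direction of the 7 called genes did not turn under the alternatives run. In control arthritis against naive joints 5 were higher and 2 lower. The higher count was 3 without a filter, 9 with DESeq2, 2 with limma-voom, 2 in a fit of the 2 groups alone, 0 without controls 2 and 4 and 0 without the 2 libraries poor in epidermal genes. The lower count was 1, 4, 3, 1, 0 and 1 in the same order. The share of all tested genes called, 10.3% at first, moved too: it was 3.97%, 17.4%, 6.99%, 2.74%, 0.00577% and 0.974% in that order. Without each library in turn the counts were 2 to 15 higher and 1 to 3 lower, with 15 without control 1, and 2.4% to 27.2% of all genes were called. In anti-SIRPa against control joints 2 were higher and 1 lower, with 3.29% of all genes called. The higher count was 0 and the lower count 0 in a fit of the 2 groups alone, without controls 2 and 4 and without the 2 epidermis-poor libraries. With DESeq2 3 were higher (Cd55, Serping1 and Vtn) and 2 lower (Cfb and Cfp), with 11.3% of all genes called. Without a filter 2 were higher (Serping1 and Vtn, with Cd55 no longer called) and 2 lower (Cfb and Cfp), with 1.73% of all genes called. Without each library in turn 0 to 4 were higher and 0 to 11 lower, with 0% to 23% of all genes called. Between anti-SIRPa and naive joints 0 were called under each alternative. Without a filter the median log2 fold change of all genes moved to 0.38 in control arthritis and -0.35 in anti-SIRPa joints, and the cause of the moved counts was not tested.

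The replicate numbers were taken to name animals only. Of 12 same-numbered pairs 1 had a correlation over 0.1, and in 2 of 24 cases a library was most alike to its own number in another group. Pairs with unlike numbers reached a correlation of 0.766, so these values cannot tell whether same-numbered mice share a cage or day. With the number as a replicate block, 2 complement genes were higher and 2 lower in control arthritis (735 genes in all, against 1721), and 0 higher and 0 lower in anti-SIRPa against control joints (78 genes in all, against 548).

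Depth limits Masp2, C6 and C8g, which had at most 7 counts in a library, where a count of 3 is 0.17 to 0.394 CPM.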

Other observations

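Csmd2 and Cpn2, complement genes with few counts elsewhere, were highest in controls 2 and 4, the libraries rich in smell and taste receptor counts. They and Cr2 were singled out after their values were seen. Csmd2, a complement inhibitor gene known from the nervous system, had at most 0.129 CPM in anti-SIRPa mice, 0.331, 2.76, 0.378 and 1.44 CPM in control mice 1 to 4 and at most 0.211 CPM in naive mice. Cpn2, which encodes the regulatory subunit of the enzyme that inactivates C3a and C5a and is made in liver, had at most 0.144 CPM in anti-SIRPa mice, 0, 1.71, 0.227 and 1.73 CPM in control mice and at most 0.211 CPM in naive mice. Cr2, the B cell receptor for C3d, was high in control 2 but not in control 4: it had 0.0588, 0.0644, 1.59 and 0.113 CPM in anti-SIRPa mice 1 to 4, 0, 4.33, 0.68 and 0.217 CPM in control mice and at most 0.421 CPM in naive mice. None of these genes passed the filter on low counts, so none was tested.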
